A study of Mus musculus with 8 samples.

Results

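The acetylation of histone H3 at lysine 9 (H3K9ac) was examined at the promoters of 10 genes that encode regulators of DNA methylation and chromatin and are known for mutation, rearrangement or altered function in myeloid leukaemia: *Dnmt1*, *Dnmt3a*, *Tet1*, *Tet2*, *Tet3*, *Idh1*, *Idh2*, *Ezh2*, *Asxl1* and *Kmt2a*. The rule names the genes and uses no measured value, and they are 10 of 21951 protein-coding genes in the annotation, of which 12903 had a promoter peak in at least 1 library. A promoter peak was any called peak that overlapped a window of 1 kb on each side of any annotated transcription start site (TSS) of the gene. For each gene the presence, width and fold enrichment of the strongest promoter peak were read, together with its rank, from 0 to 100, among all promoter peaks of the same library.

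Bone marrow (BM) cells of C57BL/6 mice were used. The paper's methods describe frozen BM cells, while the heading of its figure on these data names c-kit positive cells. All mice, controls included, carried the *NUP98-HOXD13* transgene, a fusion gene that models myelodysplastic syndrome and its progress to acute myeloid leukaemia. The genotypes were *GFI1-36S*, *GFI1-36N*, a variant with asparagine in place of serine, and *GFI1-KD*, with reduced expression of this transcriptional repressor. For each of the 3 genotypes there was 1 library of vehicle-treated mice (DMSO) and 1 of mice given curcumin at 20 mg/kg weekly by intraperitoneal injection, 6 libraries in all. Since each group is a single library, no difference could be set against replicates and p-values were not computed.

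H3K9ac marks active promoters and is written by histone acetyltransferases, of which curcumin is a natural inhibitor. DNMT1 copies DNA methylation after replication and DNMT3A places it anew, while the TET enzymes oxidise 5-methylcytosine, using 2-oxoglutarate that IDH1 and IDH2 supply. EZH2 places the repressive H3K27 methylation of Polycomb, ASXL1 works with the deubiquitinase BAP1 on Polycomb chromatin, and KMT2A (MLL) methylates H3K4 at active promoters.

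The lists held 20354 to 49213 peaks per library, of which 12700 to 16484 lay at promoters of protein-coding genes. The deposited values allowed the whole number of fragments at each summit to be recovered for 100% of peaks (tolerance 0.002 on the −log10 p scale). From these fragments an exact Poisson 95% interval was set on each fold enrichment and carried over to its rank, and a difference is called here only where the intervals of both libraries do not overlap. The intervals cover counting error at the summit only. They take the local background as exact and leave out variation between mice. BM is a mixture in which fewer cells of a type and less acetylation per cell cannot be told apart.

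The *GFI1-36S* curcumin library stood apart. It had the fewest peaks, 20354, and the narrowest promoter peaks, with a median of 831 bp against 1220 to 1550 bp in the other 5. All 14 of 14 T cell marker genes had a promoter peak in it, against 6 to 10 elsewhere, with a summed rank of 788 against 149 to 272. In turn 1 of 18 neutrophil markers had a peak against 11 to 17, 2 of 10 stem and progenitor markers (*Kit*, *Cd34*, *Hoxa9*, *Gata2*, *Erg* and *Lmo2* were among those without one) against 9 or 10, and 1 of 10 erythroid markers against 5 to 10. B cell markers had a peak for 1 of 10 against 2 to 5. It was also the only library with peaks on the Y chromosome, 3 in all, and the only one with no peak at *Xist*. The names of both deposited *GFI1-36S* lists carry the opposite treatment to their labels. The labels were followed. If the names were right, the direction of each difference between vehicle and curcumin within *GFI1-36S* below would turn. Comparisons of *GFI1-36S* with another genotype would then use its other library. The names of the *GFI1-36N* lists also give the vehicle mice as heterozygous and the curcumin mice as homozygous for the variant, which the labels do not state, so that treatment and this difference cannot be told apart there.

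A promoter peak was found for each of the 10 genes in every one of the 6 libraries, as it was for 9523 protein-coding genes. None of the 10 had a promoter peak in only 1 library of a vehicle and curcumin pair. Over all genes with a peak in either library that share was 18.5% in *GFI1-36S*, 7.77% in *GFI1-36N* and 8.04% in *GFI1-KD*. The median rank of the 10 genes was between 65.0 and 81.1 in the 6 libraries, and the median of the strongest promoter peak over all genes was between 63.8 and 67.4. Their peaks were wider than the median gene's for 7 genes in the *GFI1-36S* curcumin library and for 8 in each of the other 5.

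**Figure D1:**
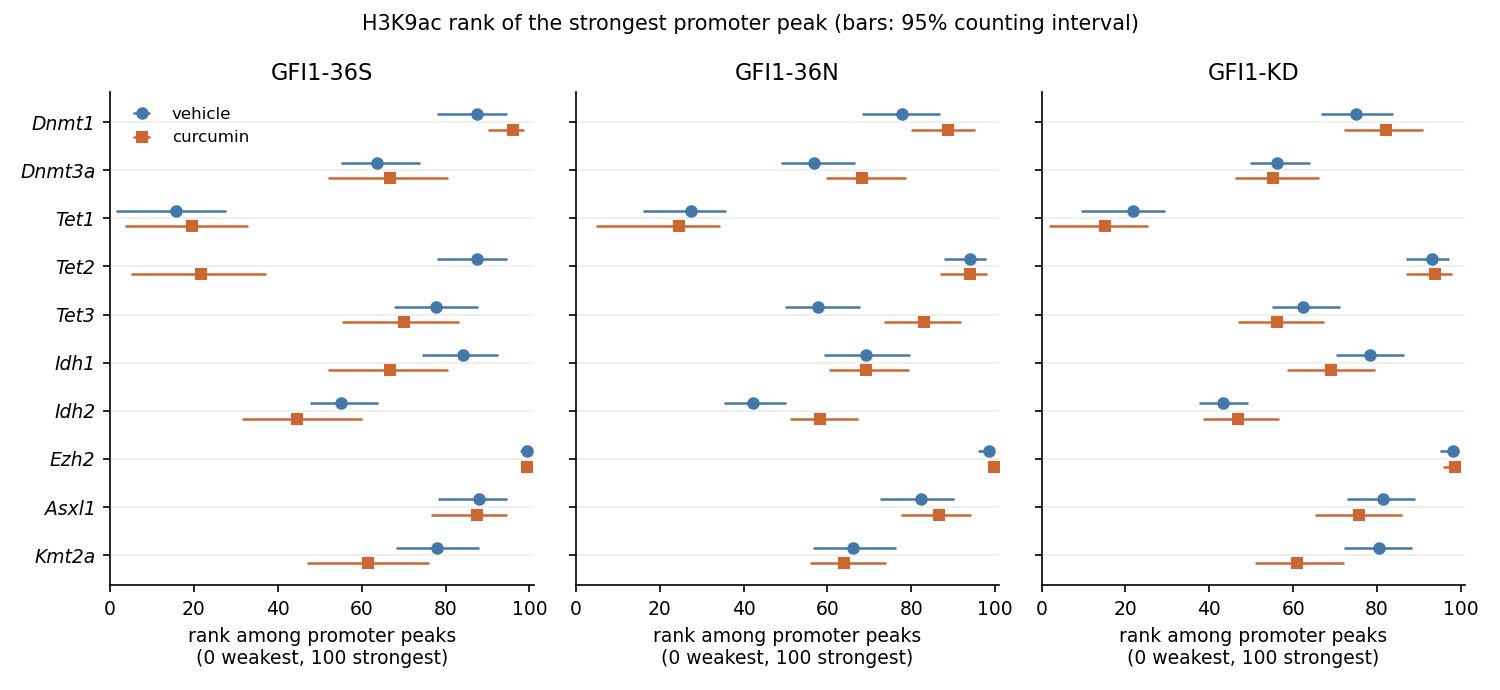
Rank of the strongest H3K9ac promoter peak of each gene among all promoter peaks of its library (x axis, 0 to 100) for vehicle (circles) and curcumin (squares) in the 3 genotypes, with bars for the 95% counting interval and 1 library per point. *Ezh2* lay above 98 and *Tet1* below 28 in all 6 libraries, and *Tet2* dropped to 21.8 in the *GFI1-36S* curcumin library.

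The 10 genes were spread over nearly the whole range of promoter acetylation. By the median rank over the 6 libraries the order was *Ezh2* (99.1), *Tet2* (93.4), *Dnmt1* (84.9), *Asxl1* (84.5), *Idh1* (69.2), *Tet3* (66.3), *Kmt2a* (65.0), *Dnmt3a* (60.2), *Idh2* (45.7) and *Tet1* (20.7). *Ezh2* was first and *Tet1* last in every library. Most genes could not be separated from the next in the order of their own library. *Tet1* lay below its neighbour beyond counting error in 4 libraries, each time *Idh2*, *Ezh2* lay above its neighbour in 2, and *Dnmt3a* lay above *Idh2* in 1.

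The sequences at *Ezh2* and *Tet1*, first and last in this order, at the promoter with the largest difference and at the paired promoters of *Dnmt3a* and *Tet3* are shown from GRCm38.p6 (RefSeq promoter windows, and the genome sequence itself for the upstream *Tet3* start). Each run is 300 bases, from 250 before to 50 after a start, 5′ to 3′ on the strand of the gene, and capitals mark each CpG, the dinucleotide on which DNMT and TET enzymes act. *Ezh2* is at chr6:47594981-47595280 (minus strand), *Tet1* at chr10:62887275-62887574 (minus strand), *Tet2* at chr3:133544341-133544640 (minus strand), *Tet3* at chr6:83456343-83456642 for the upstream and chr6:83441629-83441928 for the downstream promoter (minus strand), and *Dnmt3a* at chr12:3806730-3807029 for the upstream and chr12:3891494-3891793 for the downstream promoter (plus strand). The *Tet1* window is that of a start of coding transcripts, which the strongest peak of that promoter region covered in no library. It is not that of the internal start where the strongest *Tet1* peak lay in 5 libraries.
Ezh2: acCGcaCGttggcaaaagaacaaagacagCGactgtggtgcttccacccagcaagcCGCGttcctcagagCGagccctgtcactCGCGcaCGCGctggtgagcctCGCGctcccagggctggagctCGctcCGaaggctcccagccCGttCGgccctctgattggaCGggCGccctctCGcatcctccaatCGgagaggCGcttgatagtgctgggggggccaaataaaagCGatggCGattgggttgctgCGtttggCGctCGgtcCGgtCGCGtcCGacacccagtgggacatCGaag
Tet1: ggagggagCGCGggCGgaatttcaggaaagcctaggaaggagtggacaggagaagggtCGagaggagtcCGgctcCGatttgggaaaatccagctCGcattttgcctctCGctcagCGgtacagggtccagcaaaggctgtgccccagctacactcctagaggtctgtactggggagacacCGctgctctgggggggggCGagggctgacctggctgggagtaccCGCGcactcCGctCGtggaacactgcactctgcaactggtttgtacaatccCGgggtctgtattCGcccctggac
Tet2: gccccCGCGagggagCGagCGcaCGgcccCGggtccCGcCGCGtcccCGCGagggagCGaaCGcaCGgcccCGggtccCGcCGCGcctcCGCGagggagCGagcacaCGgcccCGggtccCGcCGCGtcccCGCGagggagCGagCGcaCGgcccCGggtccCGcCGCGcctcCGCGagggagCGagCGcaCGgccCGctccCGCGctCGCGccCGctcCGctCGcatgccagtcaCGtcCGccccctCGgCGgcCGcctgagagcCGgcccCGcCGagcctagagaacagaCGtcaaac
Tet3 upstream: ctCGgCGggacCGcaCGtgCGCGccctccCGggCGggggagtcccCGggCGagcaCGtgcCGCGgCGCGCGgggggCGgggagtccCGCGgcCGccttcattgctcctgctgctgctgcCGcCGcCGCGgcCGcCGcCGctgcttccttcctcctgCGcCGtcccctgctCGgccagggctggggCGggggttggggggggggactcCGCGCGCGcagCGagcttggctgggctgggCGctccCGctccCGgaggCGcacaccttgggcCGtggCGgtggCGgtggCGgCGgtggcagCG
Tet3 downstream: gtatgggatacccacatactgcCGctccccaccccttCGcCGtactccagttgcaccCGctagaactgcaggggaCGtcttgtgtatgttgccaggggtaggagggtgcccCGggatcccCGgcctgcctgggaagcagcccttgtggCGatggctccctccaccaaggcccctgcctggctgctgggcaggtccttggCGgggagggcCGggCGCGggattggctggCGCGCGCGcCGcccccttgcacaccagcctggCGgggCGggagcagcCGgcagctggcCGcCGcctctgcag
Dnmt3a upstream: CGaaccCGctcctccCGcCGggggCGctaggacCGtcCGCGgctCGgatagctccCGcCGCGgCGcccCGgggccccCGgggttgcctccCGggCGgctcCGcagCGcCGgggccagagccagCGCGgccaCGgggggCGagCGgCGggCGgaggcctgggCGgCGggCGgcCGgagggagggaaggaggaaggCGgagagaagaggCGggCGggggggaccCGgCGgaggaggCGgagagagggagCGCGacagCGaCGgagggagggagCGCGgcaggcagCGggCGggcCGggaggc
Dnmt3a downstream: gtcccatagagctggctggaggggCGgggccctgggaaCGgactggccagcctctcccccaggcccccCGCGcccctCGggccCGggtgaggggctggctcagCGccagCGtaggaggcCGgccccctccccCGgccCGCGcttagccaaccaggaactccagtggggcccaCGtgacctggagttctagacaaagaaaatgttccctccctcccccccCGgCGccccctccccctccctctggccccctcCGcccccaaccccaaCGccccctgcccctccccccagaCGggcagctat

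The *Tet2* window was the densest in CpG of these, with 57 CpG and 81.3% GC, and its ratio of observed to expected CpG of 1.17 was as high as or higher than in 99.0% of the 21255 windows of protein-coding genes. The *Ezh2* window held 31 CpG at a ratio of 0.999 and the *Tet1* window 17 at a ratio of 0.607, where the median of all windows was 13 CpG and 0.567. At *Tet3* the upstream window had 46 CpG and the downstream window 22, and at *Dnmt3a* they had 46 and 18. A search on both strands found the GC box GGGCGG in 12 of the 15 RefSeq windows of the 10 genes (46.2% of all windows), CCAAT in 6 (38.2%) and the ETS core GGAAG in 12 (72.4%). The GFI1 core AATCAC was in none of the 15, and 9.81% of all windows held it. These counts are of letters in the windows, and binding was not measured.

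*Dnmt1*, the maintenance methyltransferase, had its peak at a group of 4 starts on chromosome 9, the first of them at 20952979. The summit lay 262 to 339 bp downstream of the nearest start, and the peak of the *GFI1-36S* curcumin library did not cover the first. No peak lay at the start 20959888 upstream of the group. Its ranks with vehicle and curcumin were 87.5 and 96.1 in *GFI1-36S*, 77.7 and 88.7 in *GFI1-36N*, and in *GFI1-KD* 74.9 and 82.2. The rank was thus higher with curcumin in 3 of 3 genotypes, by 8.56, 11.02 and 7.29 rank points, and no pair of intervals was apart. With the *GFI1-36S* treatments exchanged it was higher in 2 of 3. In *GFI1-36S* the fold enrichment itself was lower with curcumin, 23.3 against 28.2, while the rank was higher, since the promoter peaks of the curcumin library were lower in general (median fold 9.62 against 13.5).

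*Dnmt3a*, the de novo methyltransferase, carried peaks at a pair of promoters in all 6 libraries. The upstream one (first start at chromosome 12, 3806007) is the start of the long isoform, and the downstream one (3891728) is the start of the short isoform. The downstream promoter was the stronger in every library, with ranks of 63.6 and 66.8 (vehicle and curcumin) in *GFI1-36S*, 56.8 and 68.4 in *GFI1-36N*, and in *GFI1-KD* 56.1 and 55.3. The upstream promoter had ranks of 56.6 and 41.6 in *GFI1-36S*, 47.0 and 42.2 in *GFI1-36N*, and in *GFI1-KD* 50.9 and 30.0. In *GFI1-KD* the upstream promoter fell beyond counting error, from 115 fragments (95% interval 94.9 to 138) to 47 (34.5 to 62.5) at the summit, and its peak narrowed from 2140 to 1296 bp. The downstream promoter of the same libraries had 132 and 98 fragments and overlapping intervals of rank (49.6 to 63.9 and 46.1 to 66.2).

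*Tet2*, the 5-methylcytosine dioxygenase most often mutated in myeloid neoplasms, gave the largest difference. Its peak had 167 summit fragments with vehicle and 28 with curcumin in *GFI1-36S*, 204 and 194 in *GFI1-36N*, and in *GFI1-KD* 264 and 194. The fold enrichments were 28.2 (24.1 to 32.8) and 5.17 (3.49 to 7.39) in *GFI1-36S*, 29.5 and 33.7 in *GFI1-36N*, and in *GFI1-KD* 36.2 and 32.3. Only the *GFI1-36S* curcumin library was low, and its interval did not overlap that of any of the other 5. The rank fell from 87.5 (77.9 to 94.5) to 21.8 (5.06 to 37.2), by 65.7 rank points, and 0.341% of the genes with a peak in both libraries fell by as much or more. In *GFI1-36N* the rank was 94.0 and 94.1, and in *GFI1-KD* 93.1 and 93.7.

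The shape of the *Tet2* peak differed as well. In the other 5 libraries it was 3056 to 3559 bp wide, began 215 to 391 bp upstream of the first start (chromosome 3, 133545139) and covered it. In the *GFI1-36S* curcumin library it was 572 bp wide, lay between 879 and 1450 bp downstream of that start and did not cover it. The antisense transcript *Gm42567*, whose start at 133545097 lies on the opposite strand, was under the peak in the same 5 libraries and not in this one. The library was the one with a peak at every T cell marker and at few neutrophil and progenitor markers. The part of these cell types in the *Tet2* value was not tested.

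**Figure D2:**
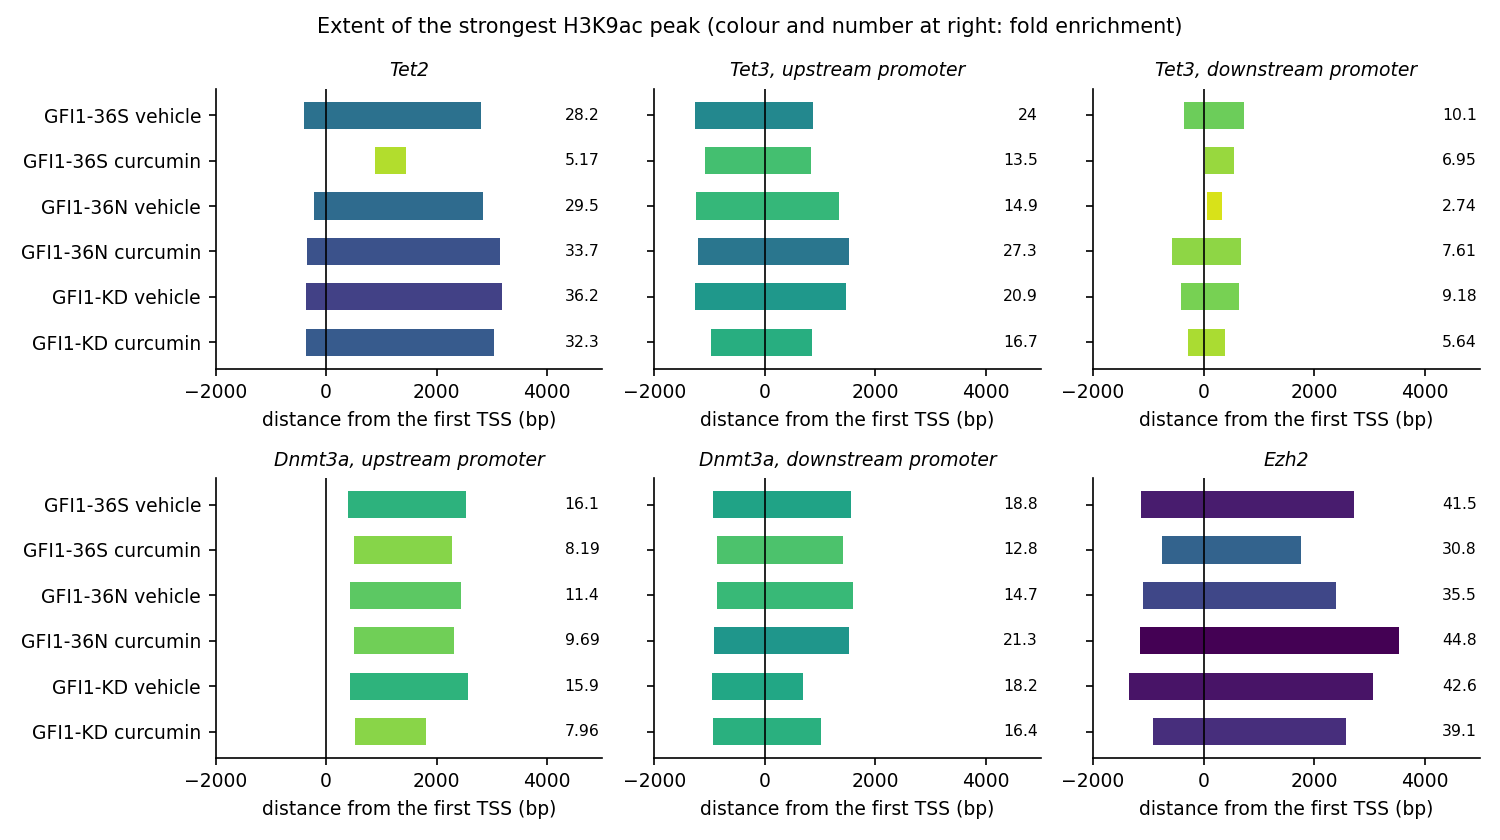
Extent of the strongest H3K9ac peak at 6 promoters in the 6 libraries, as distance in bp from the first start in the direction of transcription, with the fold enrichment as colour and as the number at the right. The *Tet2* peak of the *GFI1-36S* curcumin library is 572 bp wide and lies downstream of the start, and the downstream *Tet3* peak of the *GFI1-36N* vehicle library is 290 bp wide.

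*Tet3*, a TET enzyme known for its role in the zygote, also had a pair of acetylated promoters. At the upstream one (chromosome 6, 83456392) the summit held 142 and 75 fragments with vehicle and curcumin in *GFI1-36S*, 103 and 157 in *GFI1-36N*, and in *GFI1-KD* 152 and 100. By rank the *GFI1-36N* curcumin library was the highest of the 6 and the *GFI1-KD* curcumin library the lowest. In *GFI1-36N* the rank rose from 57.7 (49.8 to 67.7) to 83.0 (73.5 to 91.8), by 25.3 rank points, and 1.42% of genes rose by as much or more. In *GFI1-36S* it was 77.7 and 70.1 and in *GFI1-KD* 62.5 and 56.2, with overlapping intervals. The downstream promoter (83441678) was weaker in every library. It rose in *GFI1-36N* from 18 fragments, a fold enrichment of 2.74 and a rank of 1.04 to 43 fragments, 7.61 and 36.8. It fell in *GFI1-KD*, from 66 fragments and a rank of 35.8 to 33 and 20.8, and was 41.9 and 34.3 in *GFI1-36S*.

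*Tet1*, the family member known from embryonic stem cells, was the weakest of the 10 genes, with 26 to 38 summit fragments and a fold enrichment of 3.97 to 5.61. Its ranks with vehicle and curcumin were 15.7 and 19.6 in *GFI1-36S*, 27.5 and 24.6 in *GFI1-36N*, and in *GFI1-KD* 21.8 and 15.1. Its strongest peak lay at an internal start (chromosome 10, 62865304) whose transcript is not annotated as coding, except in the *GFI1-36S* vehicle library. At the coding starts 62887512 and 62887324 a peak was present in 5 of 6 libraries and absent from the *GFI1-36S* curcumin library. The strongest peak there had its summit 997 to 1105 bp downstream of the nearest start and ranks of 10.8 to 20.6. No *Tet1* difference was called.

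*Idh1*, the cytosolic isocitrate dehydrogenase, shares its promoter with *Pikfyve*, a lipid kinase gene that starts at chromosome 1, 65186683, on the opposite strand. The strongest peak covered the *Pikfyve* start in all 6 libraries and had its summit at −415 to −357 bp from the nearest *Idh1* start (negative is upstream), so the acetylation of both genes cannot be told apart there. The peak covered the first *Idh1* start (65186500) only in the *GFI1-KD* vehicle library. In the other libraries it ended 93 to 174 bp upstream of that start, on the side of *Pikfyve*. Its ranks were 84.2 and 66.8 with vehicle and curcumin in *GFI1-36S*, 69.18 and 69.17 in *GFI1-36N*, and in *GFI1-KD* 78.3 and 69.1, with overlapping intervals. A downstream *Idh1* start at 65179181, away from *Pikfyve*, had a peak in all 6 libraries. There the rank fell in *GFI1-36S* from 61.5 to 24.8, with 106 and 30 summit fragments and widths of 3130 and 444 bp. In *GFI1-36N* it was 47.4 and 58.2 and in *GFI1-KD* 58.5 and 60.3, not called in either. The fall was again in the library that stood apart.

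*Idh2*, the mitochondrial enzyme, had 91 and 48 summit fragments with vehicle and curcumin in *GFI1-36S*, 67 and 98 in *GFI1-36N*, and in *GFI1-KD* 89 and 81. Its ranks were 55.0 and 44.6, 42.2 and 58.2, then 43.3 and 46.7 in the same order. In *GFI1-36N* the rank rose by 16.0 rank points, with intervals of 35.3 to 50.2 and 51.0 to 67.2 that lie barely apart, and 7.70% of genes rose by as much or more. This call was lost under 7 of 11 alternative settings, with a change of 13.7 to 16.4 rank points under all 11.

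**Figure D3:**
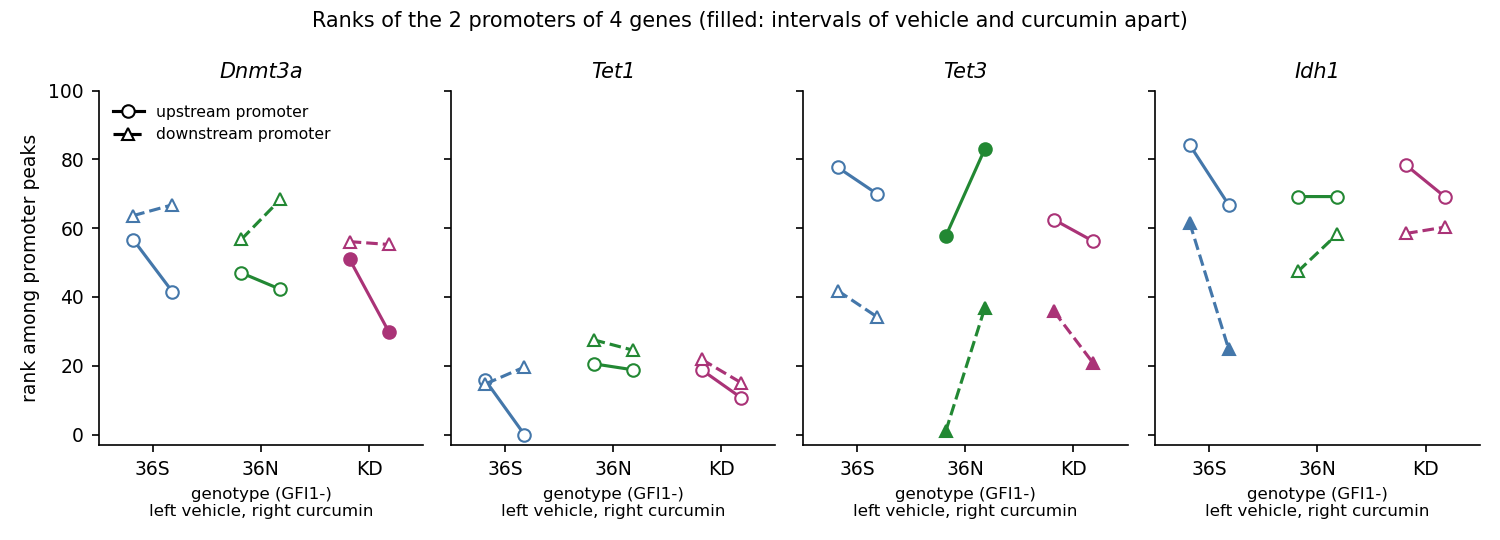
Rank of the upstream (circles, solid lines) and downstream (triangles, dashed lines) promoter of *Dnmt3a*, *Tet1*, *Tet3* and *Idh1* with vehicle (left) and curcumin (right) in each genotype, with 0 for no peak and filled symbols where the intervals were apart. Both *Tet3* promoters rose in *GFI1-36N*, and the upstream *Dnmt3a* promoter fell in *GFI1-KD* from 50.9 to 30.0.

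*Ezh2*, the catalytic subunit of PRC2, had among the strongest promoter peaks of each library. Its fold enrichment was 41.5 and 30.8 with vehicle and curcumin in *GFI1-36S*, 35.5 and 44.8 in *GFI1-36N*, and in *GFI1-KD* 42.6 and 39.1, and its rank was 98.2 to 99.6 throughout. The rank spanned 1.45 rank points over the 6 libraries, the least of the 10 genes, and near the top of the scale it leaves little room for a rise. Its peak was widest in the *GFI1-36N* curcumin library, 4694 bp, and narrowest in the *GFI1-36S* curcumin library, 2520 bp. A second, weak peak lay at an internal start (chromosome 6, 47578010) in the *GFI1-36N* curcumin library only, with 24 summit fragments.

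*Asxl1* had ranks of 87.9 and 87.5 with vehicle and curcumin in *GFI1-36S*, 82.3 and 86.7 in *GFI1-36N*, and in *GFI1-KD* 81.4 and 75.8, and none of these pairs was called. Its peak was among the widest, 1992 to 4540 bp, and also covered the start of the non-coding gene *2500004C02Rik* in all 6 libraries. In *GFI1-36S* the strongest peak was 4216 bp wide with vehicle and 1992 bp with curcumin at nearly the same rank. There was 1 promoter peak with vehicle and 2 with curcumin, which covered 3961 and 2445 bp of the promoter windows. *Kmt2a* had ranks of 78.1 and 61.5 in *GFI1-36S*, 66.0 and 63.9 in *GFI1-36N*, and in *GFI1-KD* 80.5 and 60.9, lower with curcumin in 3 of 3 genotypes, with a difference of −2.06 rank points in *GFI1-36N*, and in 2 of 3 with the *GFI1-36S* treatments exchanged. In *GFI1-KD* it had 209 and 109 summit fragments, and the intervals of rank, 72.07 to 88.4 and 50.9 to 72.09, overlapped by a narrow margin. Its strongest peak was 3499 and 1899 bp wide in *GFI1-36S*, 2425 and 2398 bp in *GFI1-36N*, and in *GFI1-KD* 3693 and 1923 bp. In *GFI1-36S* and *GFI1-KD*, however, 1 peak at the promoter with vehicle stood against 2 with curcumin, and the promoter bases under any peak were 2404 and 2247 bp in *GFI1-36S* and 2431 and 2303 bp in *GFI1-KD*.

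Over the 10 genes, in *GFI1-36S* 1 was lower beyond counting error (*Tet2*) and 0 were higher, beside 16.5% and 4.56% of all genes with a peak in both libraries. In *GFI1-36N* 0 were lower and 2 were higher (*Tet3* and *Idh2*), beside 1.61% and 6.06%. In *GFI1-KD* 0 were lower and 0 higher, beside 7.73% and 2.01%. Counts of 0 and 1 in 10 genes are near these backgrounds, and 1 of the 2 calls in *GFI1-36N* is that of *Idh2*, which most alternatives lost. The median rank change of the 10 genes was −4.02 in *GFI1-36S*, 2.73 in *GFI1-36N* and −3.21 in *GFI1-KD*, and that of all genes −5.91, 3.15 and −2.28. By rank alone 7, 3 and 6 of the 10 genes were lower with curcumin, against 68.5%, 33.9% and 63.0% of all genes. The median ratio of peak widths, curcumin to vehicle, was 0.659, 1.03 and 0.793 for the 10 genes and 0.604, 1.04 and 0.815 for all genes. In these summaries the 10 genes lay close to all genes, whose ranks and widths also differed between the libraries of each pair.

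**Figure D4:**
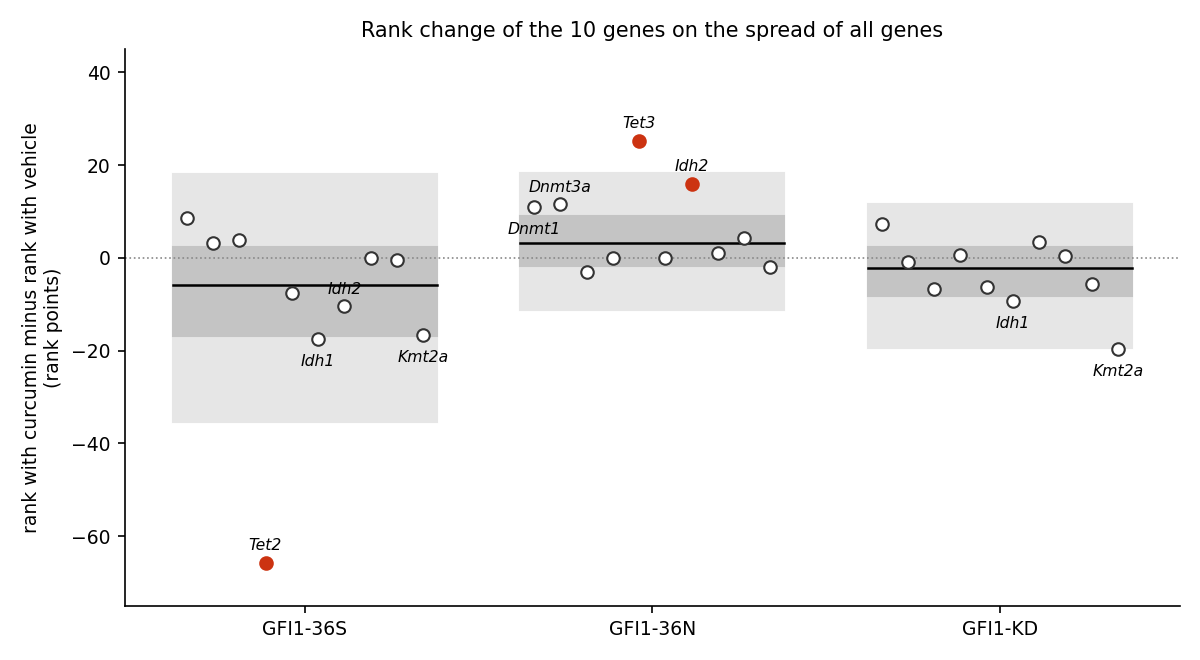
Rank with curcumin minus rank with vehicle for each of the 10 genes (points, filled red where the intervals were apart) on the spread of all genes with a peak in both libraries (dark band 25th to 75th percentile, light band 5th to 95th percentile, black line median). *Tet2* in *GFI1-36S* and *Tet3* in *GFI1-36N* lie outside the light bands, and *Kmt2a* in *GFI1-KD*, at −19.6, lies just below the light band.

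Counted by promoter, the 10 genes had 46 separate promoter regions, of which 16 had a peak in any library and 13 in all 6. In *GFI1-36S* 2 of 13 regions with a peak in both libraries were lower (*Tet2* and downstream *Idh1*) and 0 higher, beside 17.1% and 4.46% of the regions of all genes. In *GFI1-36N* 3 of 15 were higher (both *Tet3* promoters and *Idh2*) and 0 lower, beside 6.22% and 1.70%. In *GFI1-KD* 2 of 14 were lower (upstream *Dnmt3a* and downstream *Tet3*) and 0 higher, beside 8.51% and 2.05%. Regions of 1 gene are not independent of each other.

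Between genotypes, none of the 10 genes was called different among the 3 libraries labelled vehicle. The share of all genes that did, in either direction, was 9.26% for *GFI1-36N* against *GFI1-36S*, 7.54% for *GFI1-KD* against *GFI1-36S* and 9.65% for *GFI1-KD* against *GFI1-36N*. Among the curcumin libraries *Tet2* was higher in *GFI1-36N* than in *GFI1-36S* by 72.3 rank points (20.0% of all genes differed) and higher in *GFI1-KD* than in *GFI1-36S* by 71.9 (19.9%). Both differences share the *GFI1-36S* curcumin library. If the names of the *GFI1-36S* lists are right, they belong to the vehicle libraries, where *Tet2* would be higher in *GFI1-36N* by 72.2 and in *GFI1-KD* by 71.3 rank points, and *Dnmt1* lower by 18.4 and 21.2, beside 18.1% and 25.7% of all genes that would differ. *Tet3* was lower in *GFI1-KD* than in *GFI1-36N* by 26.7 rank points, at 56.2 and 83.0 (16.8% of all genes differed). In that last comparison the rank was lower in *GFI1-KD* for 10 of the 10 genes and 71.5% of all genes, with a median difference of −7.99 against −5.48. For *GFI1-36N* against *GFI1-36S* with vehicle it was lower for 8 of the 10 genes and 58.0% of all genes, with medians of −8.34 and −1.49. For *GFI1-KD* against *GFI1-36S* it was lower for 7 and 56.4% with vehicle (medians −6.19 and −0.987). With curcumin the values were 7 and 42.9% (−2.63 and 2.29). For *GFI1-KD* against *GFI1-36N* with vehicle they were 6 and 47.7% (−0.509 and 0.326). For *GFI1-36N* against *GFI1-36S* with curcumin they were 2 and 27.4% (2.42 and 6.89).

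The pathways around these genes were examined with 69 further genes in 7 lists, which were chosen with earlier results of these data known. Of these, 64 had a promoter peak in all 6 libraries, 4 in none (*Cxxc4*, *Wt1*, *Phf19* and *Asxl3*) and 1, *Dnmt3l*, a catalytically inactive partner of DNMT3A, in 5. Its rank was 30.0 in the *GFI1-36S* vehicle library, and it had no peak in the curcumin library of that genotype. In *GFI1-36S* 5 of the 64 genes with a peak in both libraries were lower and 7 higher beyond counting error, with a median change of −0.58 rank points, beside 16.5%, 4.56% and −5.91 for all genes. In *GFI1-36N* 0 of 65 were lower and 1 higher, with a median of 1.36, beside 1.61%, 6.06% and 3.15. In *GFI1-KD* 3 of 65 were lower and 0 higher, with a median of −2.70, beside 7.73%, 2.01% and −2.28.

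In *GFI1-36S* the largest falls in the lists were those of *Kdm6a*, an H3K27 demethylase of the KMT2C and KMT2D complexes, from 99.0 to 62.4, and of *Phf1*, a PRC2 cofactor, from 65.0 to 28.6. The libraries of this pair also differed in peaks on the Y chromosome and at *Xist*, and the part of this in the *Kdm6a* value was not tested. The largest rises were those of *Uhrf1*, which brings DNMT1 to hemimethylated DNA, from 64.1 to 94.4, and of *Rbbp5*, a core KMT2 subunit, from 63.5 to 88.5. Of the PRC2 list *Ezh1* and *Phf1* were lower and *Rbbp4* and *Mtf2* higher, and of the list of 2-oxoglutarate and 2-hydroxyglutarate metabolism *D2hgdh* was lower. Summit fragments were fewer with curcumin at *Rbbp4* (159 and 137) and *Mtf2* (216 and 155), though both ranks were higher. The rank also depends on the local background: with vehicle, *Mtf2* ranked 78.3 and *Setd1b*, with 206 fragments, ranked 96.5. A call of higher is thus not a gain in fragments. In *GFI1-36N* the called gene was *Dpy30*, another core KMT2 subunit, which rose from 47.2 to 74.1. It had been called lower in *GFI1-36S*, from 71.4 to 42.1. The next highest difference in *GFI1-36N* was that of *Mbd3*, 77.7 and 93.3, and the lowest were those of *Idh3g*, 83.9 and 69.6, and *Cxxc5*, 34.4 and 20.6, none of them called. In *GFI1-KD* *Phf1* fell from 72.8 to 47.7 and *Psip1*, which tethers MLL complexes to chromatin, from 77.0 to 57.2, and *Nsd1*, an H3K36 methyltransferase, was the third called gene. *Rbbp7*, a histone-binding subunit of PRC2, had ranks of 57.0 and 68.5 in *GFI1-KD* and was not called. *Phf1* was thus the listed gene called lower in both *GFI1-36S* and *GFI1-KD*, and its rank in *GFI1-36N* was 2.80 rank points higher with curcumin, not called.

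**Figure D5:**
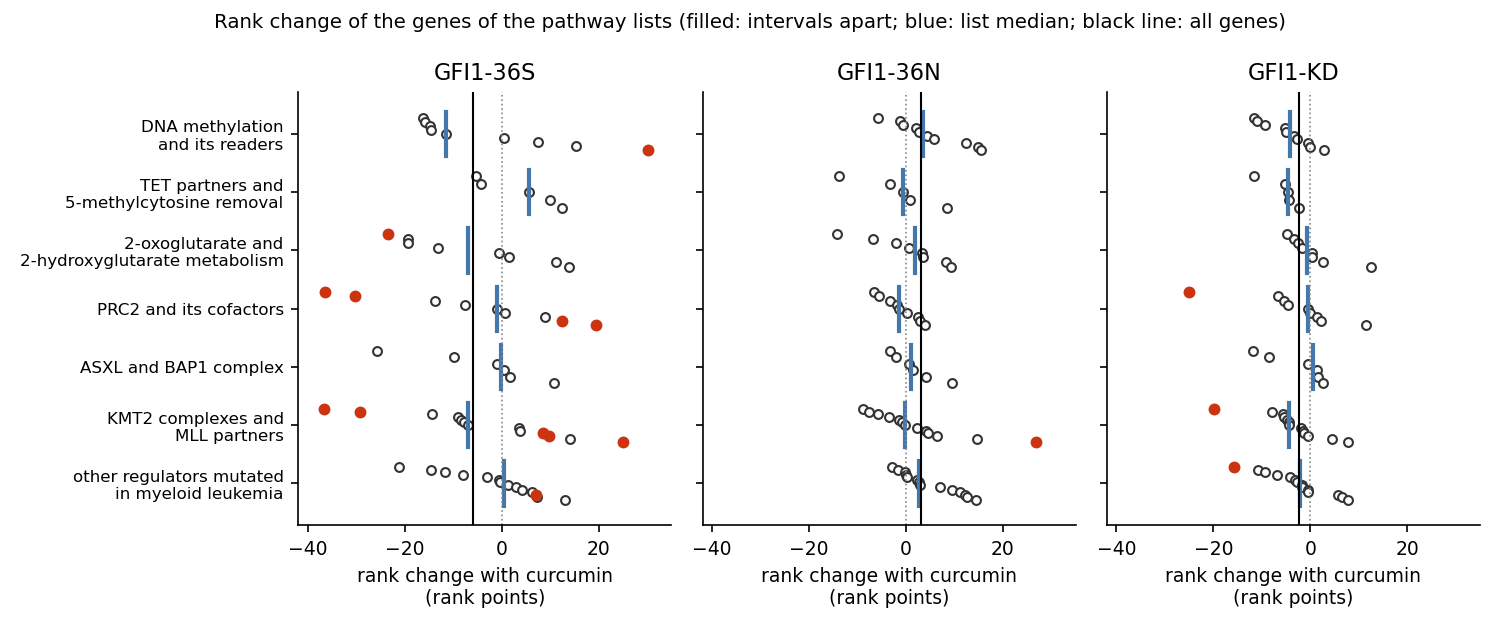
Rank with curcumin minus rank with vehicle for the genes of the 7 pathway lists with a peak in both libraries (points, filled red where the intervals were apart), with the median of each list (blue) and of all genes (black line). In *GFI1-36S* the called genes lie on both sides of 0, 5 lower and 7 higher, and in *GFI1-KD* all 3 lie below it.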

How the data were processed

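ChIP-seq for H3K9ac (antibody ab4441) was done on frozen BM cells. Per the paper's methods and the labels, the authors used Trim Galore for adapters, BWA for alignment to mm10 and MACS2 for peaks, 1 list per library, and black-listed regions were taken out. The threshold, the control of each list and the handling of duplicates are not given in the sources used here. An input and an IgG control were not used here. The fold enrichment deposited for a peak compares its summit fragments with the local background. The deposited −log10 p and −log10 q and the integer score are those of the authors' peak caller.

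TSSs came from GENCODE vM21 (GRCm38, the sequence of mm10), and promoter windows of 1 kb on each side and 1 bp of overlap were used, with Python 3.11.15, pandas 2.3.3 and scipy 1.17.1. Fold enrichments are not normalized between libraries, so ranks within a library were compared. The lowest number of summit fragments behind a gene's strongest peak was 26. Recovery and calls were tested on data simulated from the *GFI1-36N* vehicle library. Both simulated libraries had the same peaks and local background. The simulation thus does not show how calls behave where these differ between libraries, as they do here. The 10 genes, the pathway and marker lists and the tests were chosen with earlier results of these data known. From the pathway lists, the text names for each genotype the 2 largest rises, the 2 largest falls and genes with a peak in 1 library of the pair, except 1 gene that is not reported here; other called genes, and the comparison of single promoters, were added after the values were seen. Windows, thresholds, rankings, transcripts and the *GFI1-36S* labels were varied as 13 alternatives; the exchange of these labels in the comparisons between genotypes was added after the values were seen.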

Additional observations from a re-analysis of the deposited data

Results flagged for a closer look

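For 3 of the 10 genes the difference between vehicle and curcumin was itself unlike between genotypes: it was called beyond counting error in 1 genotype, and the other genotype's value was far from it. The rank change of *Tet2* was higher by 65.8 rank points in *GFI1-36N* than in *GFI1-36S* and by 66.4 in *GFI1-KD* than in *GFI1-36S*. The rank change of *Tet3* was higher by 32.9 rank points in *GFI1-36N* than in *GFI1-36S*, and the value for *GFI1-KD* minus *GFI1-36N* was −31.5. The rank change of *Idh2* was higher by 26.4 rank points in *GFI1-36N* than in *GFI1-36S*. With 1 library per group these differences between genotypes were not tested. The share of all genes with a difference as unlike was not computed. The count of 3 in 10 can therefore not be set against a background. With the *GFI1-36S* treatments exchanged, as in the names of its lists, the differences from *GFI1-36S* were −65.7 and −65.1 rank points for *Tet2*, 17.6 for *Tet3* and 5.58 for *Idh2*. Those that involve *GFI1-36S* use its curcumin library, which stood apart in its marker genes. *Tet2* did not differ by more than 0.634 rank points between vehicle and curcumin in either other genotype. For *Tet3* and *Idh2* the larger part was the rise in *GFI1-36N*, 25.3 and 16.0 rank points. Their changes in *GFI1-36S* were −7.63 and −10.4, not called. The *Tet3* difference between *GFI1-KD* and *GFI1-36N* does not use that library.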

How the results depend on the processing

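Of 161 counts and medians recomputed under 13 alternative settings, 141 stayed within the limits set and 20 did not. For a count the limit was 1.5 times the reported count. For a median it was a wide band, between the medians over the genes of the lowest and highest changes that the rank intervals allow. No median left its band, even where the sign changed, so the tally says little about medians. The sign changed with the treatments exchanged in *GFI1-36S* (4.02) and with the most upstream TSS only in *GFI1-36N* (−0.086). *Tet2* was called lower in *GFI1-36S* under 11 of 12 alternatives, and with the treatments of *GFI1-36S* exchanged its change was 65.7. *Tet3* was called higher in *GFI1-36N* under all 10 alternatives that gave a value, by 19.8 to 33.3 rank points. The 2 genes called higher in *GFI1-36N* became 1 with a 500 bp window, a −log10 q of at least 5, equal numbers of peaks, ranking among genes, protein-coding transcripts only or a call by 20 rank points, 0 with the most upstream TSS only and 4 with a call by 10 rank points. In *GFI1-KD* the 0 genes called lower became 1 with a 3 kb window or genes of all biotypes (*Kmt2a*), with the most upstream TSS only (*Dnmt3a*) and with a call by 10 rank points (*Kmt2a*). In *GFI1-36S* the 1 gene called lower became 4 with a call by 10 rank points. It became 0 with the treatments exchanged, which gave 1 gene called higher in place of 0. The share of all genes called by 10 rank points was not computed. The smallest of the 4 falls in *GFI1-36S* was that of *Idh2*, and 38.8% of genes fell by as much or more. The smallest of the 4 rises in *GFI1-36N* was that of *Dnmt1*, and 18.3% of genes rose by as much or more. With equal numbers of peaks (20354) 1 gene each in *GFI1-36S* and *GFI1-36N* had a peak in 1 library only, as did 1 in *GFI1-36S* with protein-coding transcripts only. The 7 genes ranked lower in *GFI1-36S* became 4 with equal numbers of peaks and 3 with the treatments exchanged. The cause of these shifts was not tested. Between genotypes, the 0 calls among the libraries labelled vehicle became 4 with the treatments exchanged, an alternative chosen after seeing the data, and the 3 among those labelled curcumin became 2. The median change of the 10 genes ran from −10.5 to 4.02 in *GFI1-36S*, from −0.086 to 3.89 in *GFI1-36N* and from −4.91 to −0.409 in *GFI1-KD*. No paired analysis was possible because each group has 1 library, so that the groups share fewer than 2 replicate numbers, and no fit across genotypes was made. With 1 library per group, variation between mice cannot be separated from treatment, and peaks near 26 fragments have rank intervals of over 20 rank points, as at *Tet1*.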
